A study of Mus musculus with 24 samples.

Results

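The genes Sall1, Sall3, Tfap2b, Xirp2, Morc1, and Lce1h were followed across 8 mouse astrocyte lines. They are 6 of the 14427 genes counted, and they were chosen by their counts, each being among the largest falls of a p53 mutant line below the p53 knockout (KO) line of its culture. The falls themselves are therefore a description and carry no test. The genes had been listed as silenced in single mutant lines, but the counts went against that name. None of the 6 was off in exactly 1 line: Sall1 and Sall3 were off in 4 of the 8 lines, Tfap2b and Xirp2 in 3, Morc1 in 6, and Lce1h in 2.

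The study profiled polyadenylated RNA from primary cortical astrocytes of postnatal day 1 C57BL/6 mice in 24 libraries, 3 for each of 8 lines. A male and a female culture, each pooled from Trp53 f/- pups, gave a p53 KO line and lines carrying p53 R172H, Y202C, or Y217C, missense mutants of the DNA-binding domain. Mutant lines received a retrovirus with the mutant Trp53 cDNA and eGFP and were sorted for eGFP, and then all lines, KO included, received a Cre and puromycin-resistance lentivirus that removes the floxed Trp53 allele. No line kept wild-type p53, and the KO lines had not received the retrovirus or the eGFP sort, so that the mutation and that handling cannot be told apart. Each genotype is 1 line per culture at passages 10 to 15 and its replicates are separate thaws and platings, so the spread between replicates covers neither a second culture nor a second transduction. With 1 culture per sex, sex and culture cannot be told apart either.

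Total counts ran from 52787288 to 136503809 per library (median, 80684345). Trp53, the targeted and reintroduced gene, was at 50.9 and 48.9 CPM (counts scaled to a common library total) in the male and female KO lines and between 593 and 3710 CPM in the mutant lines. Log2 levels of all genes correlated between replicates of 1 line at r of 0.9911 to 0.9974, and between line means at 0.8419 to 0.9816. Of 15 astrocyte markers measured, Vim, Sox9, Nes, Gja1, Slc1a3, Glul, Nfia, and Nfib were at 1 CPM or more in every library. Gfap, the intermediate filament of mature astrocytes, reached that level only in male Y217C (6.93 CPM ± 1.75, SD, n = 3) and was at 0.0482 to 0.257 CPM in the other 7 lines. Aqp4, the water channel of astrocyte endfeet, was off in 5 of the 8 lines.

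In GENCODE M21 on GRCm38, Sall1 (ENSMUSG00000031665) occupies chr8:89027235-89044162 on the minus strand and Sall3 (ENSMUSG00000024565) chr18:80966376-80986771 on the minus strand. Tfap2b (ENSMUSG00000025927) is at chr1:19208914-19238576 and Xirp2 (ENSMUSG00000027022) at chr2:67446002-67526614, both on the plus strand. Morc1 (ENSMUSG00000022652) is at chr16:48431237-48630900 on the plus strand, and Lce1h (ENSMUSG00000049593) at chr3:92763215-92765065 on the minus strand. All are protein-coding genes, and the 6 loci lie on 6 different chromosomes. Counts were for uniquely aligned reads. For Lce1h, 19.9% of the 50-base windows of its exons recurred in other transcripts, among them Lce1i, Lce1j, Lce1g, and Lce1a2, so reads there could have been lost or shifted, and its counts are uncertain to that extent. The share was at most 1.01% for the other 5 genes. Xirp2 overlaps the antisense gene Gm13601, which is not among the genes counted and was the only one found to share its windows. The strand setting of counting is not given in the sources used here. Reads of the pair therefore cannot be told apart in that 1.01% of the Xirp2 windows.

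The 6 genes belong to families that are known for restricted expression. Sall1 and Sall3 encode zinc-finger transcription factors of the spalt family, which bind the NuRD deacetylase complex and repress target genes during limb, kidney, and neural development. Tfap2b encodes AP-2 beta, a transcription factor of the neural crest and kidney, and its relative Tfap2a encodes AP-2 alpha. Xirp2 encodes an actin-binding repeat protein of heart and skeletal muscle. Morc1 encodes an ATPase of male germ cells that takes part in silencing of transposons. Lce1h encodes a late cornified envelope protein of the epidermis and lies in a cluster of near relatives. Silent developmental genes are commonly held by Polycomb or by DNA methylation, a mark placed on the cytosine of CG dinucleotides.

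Promoter sequences were in the RefSeq table (GRCm38.p6) for 4 of the 6 genes, Sall1, Tfap2b, Xirp2, and Lce1h, each from 250 bases before to 50 bases after a transcription start. The windows are shown because these 4 genes, on different chromosomes, were switched between off and on among the lines, and because CG dinucleotides, printed in capitals, set their promoters apart from each other. The Sall1 window at chr8:89044113-89044412 (minus strand) held 18 CG dinucleotides.
Sall1: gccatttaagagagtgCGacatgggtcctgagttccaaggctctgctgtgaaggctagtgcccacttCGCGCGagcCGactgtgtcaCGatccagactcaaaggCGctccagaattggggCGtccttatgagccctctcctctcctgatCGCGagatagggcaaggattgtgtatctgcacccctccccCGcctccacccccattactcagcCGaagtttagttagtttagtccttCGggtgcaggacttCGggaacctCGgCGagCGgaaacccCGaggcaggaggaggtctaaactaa
The Tfap2b window at chr1:19211804-19212103 (plus strand), whose start lies 3140 bases inside the GENCODE gene, held 8.
Tfap2b: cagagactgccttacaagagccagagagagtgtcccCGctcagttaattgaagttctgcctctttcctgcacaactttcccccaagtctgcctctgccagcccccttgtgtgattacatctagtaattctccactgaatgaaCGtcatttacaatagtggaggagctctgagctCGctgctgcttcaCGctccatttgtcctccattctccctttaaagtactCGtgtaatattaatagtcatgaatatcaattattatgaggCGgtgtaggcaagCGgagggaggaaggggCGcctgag
The windows of Xirp2 (chr2:67445752-67446051, plus strand) and Lce1h (chr3:92765016-92765315, minus strand) held 1 each.
Xirp2: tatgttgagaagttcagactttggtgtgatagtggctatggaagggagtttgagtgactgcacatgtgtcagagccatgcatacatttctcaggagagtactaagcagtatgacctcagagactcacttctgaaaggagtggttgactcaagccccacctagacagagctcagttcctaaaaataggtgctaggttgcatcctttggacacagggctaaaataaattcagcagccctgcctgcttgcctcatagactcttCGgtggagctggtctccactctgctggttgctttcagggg
Lce1h: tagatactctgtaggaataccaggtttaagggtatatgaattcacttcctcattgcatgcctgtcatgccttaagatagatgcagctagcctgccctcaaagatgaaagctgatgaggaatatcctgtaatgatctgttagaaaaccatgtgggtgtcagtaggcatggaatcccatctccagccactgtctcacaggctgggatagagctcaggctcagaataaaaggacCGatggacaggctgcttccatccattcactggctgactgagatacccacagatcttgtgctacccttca

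The observed over expected ratio of CG dinucleotides was 0.731 in the Sall1 window, higher than in 73.4% of the 32851 promoter windows of the table, and 0.458 for Tfap2b (higher than in 55.3%). It was 0.0577 for Xirp2 and 0.0612 for Lce1h, higher than in only 7.1% and 7.7% of windows, against a median of 0.384 over all windows. Among genes that were off in several lines, the promoters of Xirp2 and Lce1h thus lay at the low end of the CG range, and those of Tfap2b and Sall1 above its median. The other two Sall1 windows, whose starts lie 650 and 1300 bases downstream of the first, had ratios of 0.735 and 0.819. Each window was searched on both strands for 6 short motifs, the TATA box (TATAAA), the letters bound by NF-Y (CCAAT), by Sp1 (GGGCGG), and by AP-2 (GCCNNNGGC), the E-box (CACGTG), and the letters bound by E2F (TCCCGC). The printed Sall1 window held CCAAT, as did 37.4% of all windows. The printed Tfap2b, Xirp2, and Lce1h windows held none of the 6, which were in 13.6% of all windows for the TATA box, 35.7% for Sp1, 16.6% for AP-2, 7.15% for the E-box, and 20.0% for E2F. The AP-2 letters were in the third Sall1 window, beside those of Sp1 and E2F, which the second window held too.

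**Figure D1:**
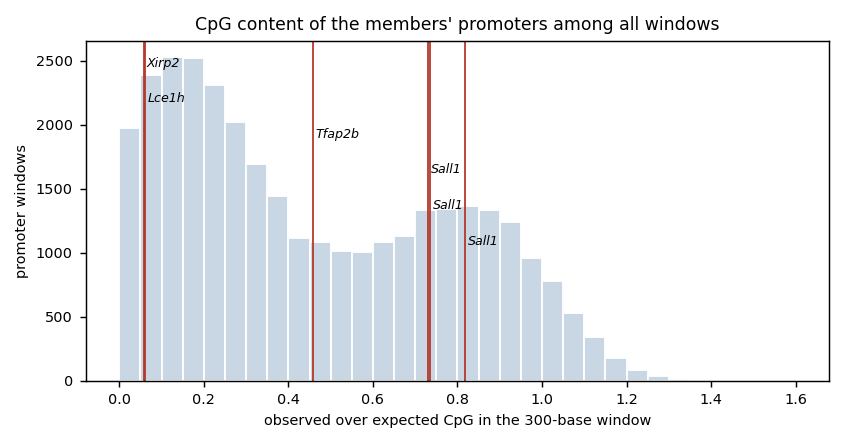
Observed over expected CG content (x axis, a ratio without unit) of 32851 RefSeq promoter windows of 300 bases (bars, number of windows per bin of 0.05), with red lines at the windows of 4 of the 6 genes. Xirp2 and Lce1h lie at the low end (0.0577 and 0.0612), Tfap2b at 0.458, and the 3 Sall1 windows between 0.731 and 0.819.

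A gene was called off in a line when all 3 libraries were under 0.1 CPM, on when all 3 were at 1 CPM or more, and low otherwise, with CPM scaled by the trimmed mean of M-values (TMM). Of the 48 pairs of a gene and a line, 22 were off, 9 low, and 17 on. Neither KO line had any of the 6 genes off. In the male mutant lines 9 of 18 pairs were off, and in the female mutant lines 13 of 18. Over all 14427 genes, 0.853% were off in male KO, 1.52% in male R172H, 0.936% in male Y202C, and 0.825% in male Y217C, and 1.4%, 1.12%, 1.17%, and 1.83% in the same order of female lines. Of the 6 genes, 0, 3, 3, and 3 were off in the male lines and 0, 5, 4, and 4 in the female lines. Of all genes, 3.32% were off in at least 1 line and on in at least 1 other, and 1.24% were off in exactly 1 line. The deposited table keeps only genes above 1 CPM in at least 3 libraries, so that a gene off in all 8 lines could not enter it.

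**Figure D2:**
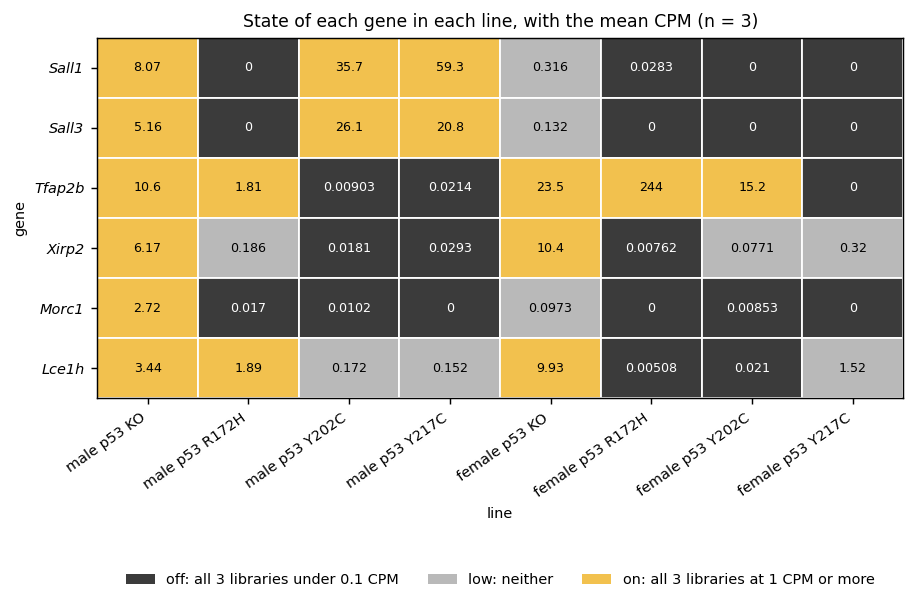
State of each of the 6 genes (rows) in each of the 8 lines (columns), with the mean CPM of 3 libraries printed in the cell; dark cells are off, grey cells low, and yellow cells on. Morc1 was on in male p53 KO only, and Sall1 and Sall3 shared 1 pattern, off in male R172H and in all 3 female mutant lines.

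The passage from on to off was rare in the table as a whole. Of 12747 genes on in the male KO line, 17 (0.133%) were off in R172H, 13 (0.102%) in Y202C, and 22 (0.173%) in Y217C. Of 12628 genes on in the female KO line, 13 (0.103%), 13 (0.103%), and 14 (0.111%) were off in R172H, Y202C, and Y217C. The genes described here made up 3 of those in each male mutant line and 2, 1, and 1 of those in the female lines, counts that their choice fixed in part.

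The libraries of a mutant line lay wholly below those of its KO line for 30 of the 36 gene and line comparisons, wholly above for 5, and overlapped for 1, Lce1h in male R172H. By line, 5 genes were lower without overlap in male R172H, 4 in male Y202C, 4 in male Y217C, 5 in female R172H, and all 6 in female Y202C and in female Y217C. Over all genes tested, the same held for 26.1%, 36.5%, 38.9%, 38.6%, 35.4%, and 33.6%. Higher without overlap were Sall1 and Sall3 in male Y202C and Y217C, and Tfap2b in female R172H, where the share over all genes was 38.4%, 38.1%, and 36.8%. Because these comparisons chose the genes, nothing is read from the counts against those shares.

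**Figure D3:**
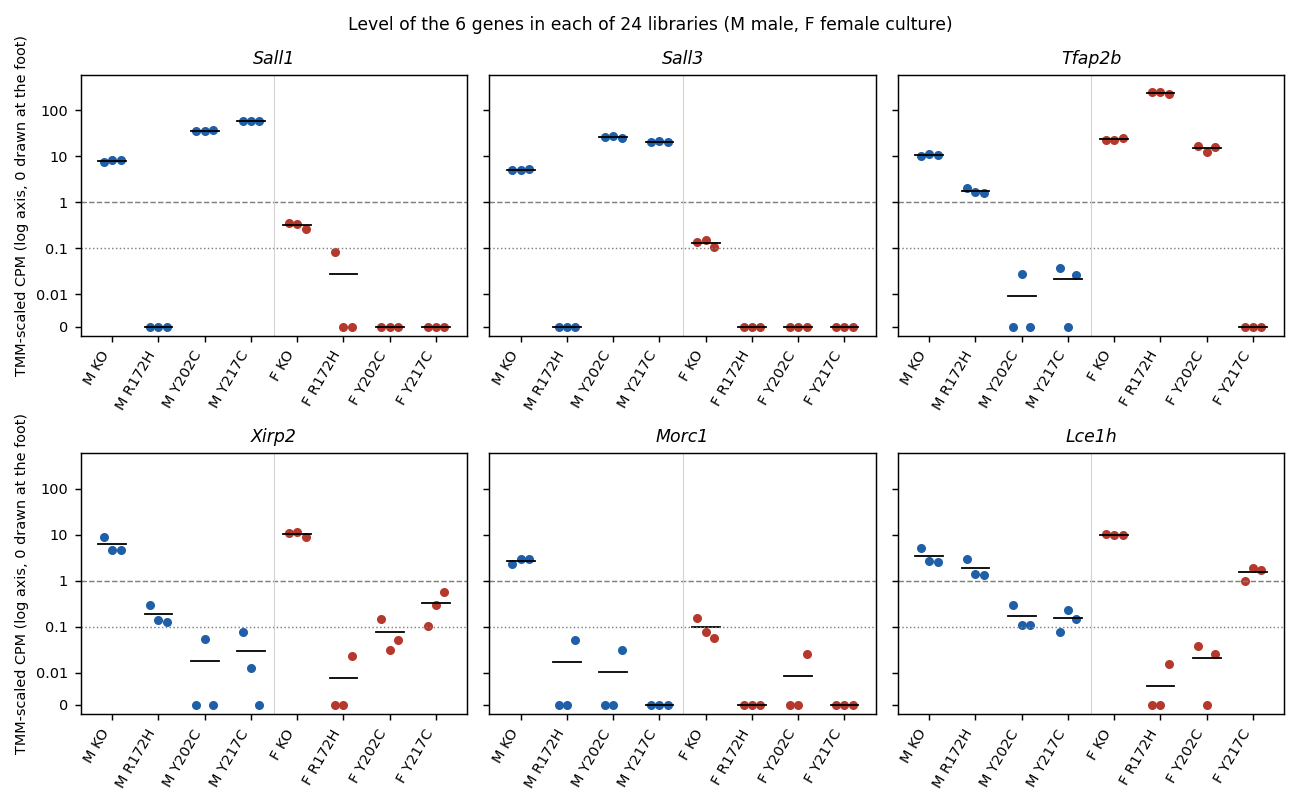
CPM (log axis, with 0 drawn at the foot) of each gene in each of the 24 libraries, blue for the male and red for the female culture; short black lines are means of 3 libraries, the dotted line marks 0.1 CPM and the dashed line 1 CPM. Replicates of a line lie close together where a gene is on, and the level spans from 0 to 253 CPM for Tfap2b.

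Sall1 was on in 3 lines of the male culture. Its level was 7.46, 8.36, and 8.39 CPM in the 3 libraries of male KO, 34.8, 35.5, and 36.7 CPM in male Y202C, and 59.7, 58.1, and 60.1 CPM in male Y217C. In male R172H it had 0 counts in all 3 libraries. Thus, within the male culture, the line means ran from 0 to 59.3 CPM ± 1.09 (SD, n = 3) without overlap between any lines.

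In the female culture Sall1 was at 36, 26, and 27 counts in KO (0.316 CPM ± 0.0487), a low level that was 25.6-fold under the male KO line. It had 8, 0, and 0 counts in female R172H and 0 in every library of Y202C and Y217C. Against a limit of 3 counts per library, Sall1 was at least 229-fold lower in male R172H than in male KO, and at least 6.73-fold and 8.05-fold lower in female Y202C and Y217C than in female KO. The summed counts gave 12.5-fold less in female R172H (95% interval, 6.09 to 29.9) and 4.36-fold (4.18 to 4.55) and 7.27-fold (6.98 to 7.58) more in male Y202C and Y217C. Intervals of this kind were computed from counts summed over the libraries of a line, and limits from a fixed count. Neither therefore covers the spread between replicates. Nor do they allow for the choice of the genes by the size of these falls, so they describe the counts and are no test. For Lce1h in male R172H, the summed count was 1.62-fold lower than in male KO (1.46 to 1.8), although the libraries of these lines overlapped. The reads carried no molecular identifiers, so repeated reads of a fragment cannot be told apart, and counting error may be understated too.

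Sall3, the relative of Sall1 on another chromosome, had the same state in every line. It was at 5.14, 4.97, and 5.38 CPM in male KO, 25.8, 27.2, and 25.3 CPM in male Y202C, and 20.2, 22.1, and 20.2 CPM in male Y217C, with 0 counts in every male R172H library. Female KO held 14, 12, and 11 counts (0.132 CPM ± 0.0241), 39.0-fold under male KO, and all 9 libraries of the female mutant lines held 0. The order of Y202C and Y217C was opposite to that of Sall1, because Sall3 was highest in male Y202C, and the libraries of these lines did not overlap for either gene.

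The drop in male R172H was at least 146-fold for Sall3. In female R172H, Y202C, and Y217C it was at least 4.59-fold, 2.82-fold, and 3.38-fold, bounds that are set by the small count in female KO. Its summed counts were 5.05-fold (4.79 to 5.33) higher in male Y202C than in KO and 4.03-fold (3.82 to 4.26) higher in male Y217C.

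Over the 8 line means of log2 CPM, the genes most like Sall1 were Sall3 (Pearson's r = 0.996), Pou3f3 (0.995), and Insm1 (0.992), and those most like Sall3 were Sall1, Insm1 (0.993), and Six3 (0.992). Pou3f3 is a POU-domain factor of neural progenitors, Six3 a homeobox factor of the forebrain and eye, and Insm1 a zinc-finger factor of neuroendocrine and neuronal precursors. These correlations rest on 8 points that share cultures and libraries, and no test is given. Pou3f3 was at 23.0 CPM ± 2.06 in male KO, 116 ± 3.54 in Y202C, and 207 ± 7.3 in Y217C, but at 0.015 CPM in male R172H and at or below 0.00426 CPM in the female mutant lines. Six3 ran from 0.111 CPM in male R172H to 186 CPM in male Y217C. Besides the pair itself, Qrfpr and C130071C03Rik had the identical sequence of on, low, and off states over the 8 lines, and none of the other 4 genes shared its sequence of states with any gene of the table.

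**Figure D4:**
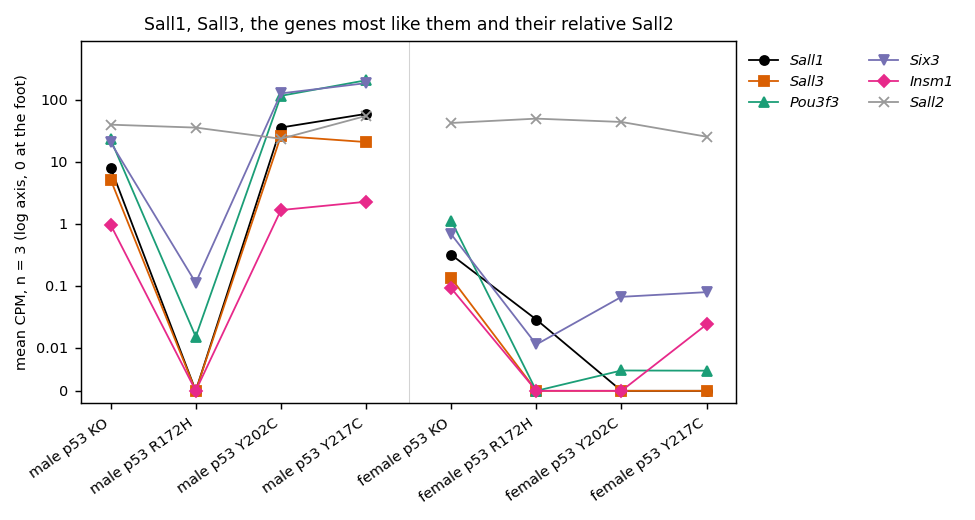
Mean CPM of 3 libraries (log axis, 0 at the foot) of Sall1, Sall3, Pou3f3, Six3, Insm1, and Sall2 in the 8 lines, with the male culture on the left and the female culture on the right. The first 5 genes share their high and their low lines, whereas Sall2 stayed between 23.5 and 55.0 CPM.

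Sall2, the remaining spalt gene in the table, was on in all 8 lines. It was lowest in male Y202C (23.5 CPM ± 1.42), where Sall3 was highest, and differed from KO by −0.76 in log2 (SE 0.067, adjusted p = 4.22e-10 by edgeR's quasi-likelihood test with Benjamini-Hochberg adjustment, as for all adjusted p-values here). It was highest in male Y217C, where Sall1 was highest (55.0 CPM ± 1.76, log2 difference 0.47, SE 0.066, adjusted p = 9.65e-07). In female Y217C, where Sall1 and Sall3 had no counts, Sall2 was lower than in KO (25.4 CPM ± 1.12, log2 difference −0.74, SE 0.067, adjusted p = 2.47e-09). In male R172H, where Sall1 and Sall3 had no counts, Sall2 was at 35.6 CPM ± 0.612 against 39.7 CPM ± 4.68 in KO (adjusted p = 0.0634).

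Among 40 listed regulators of neural tube and limb patterning, 30 were measured. In male R172H 9 were called higher and 16 lower than KO, with a median log2 difference of −0.20, where 40.7% of all genes were called and the median of all genes was 0.006. In male Y202C the calls were 15 higher and 13 lower (73.0% of all genes called), in male Y217C 12 and 12 (70.5%), in female R172H 12 and 14 (69.7%), in female Y202C 13 and 14 (68.6%), and in female Y217C 8 and 17 (56.7%). Lhx2, a LIM homeobox factor of the forebrain, followed Sall1 in part: it was at 3.34 CPM in male KO, 0.0469 in R172H, 105 in Y202C, and 25.7 in Y217C, and it was off in female R172H and Y217C but low in female Y202C (0.167 CPM).

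Levels of marker genes also differed between these lines. The summed level of 19 meningeal and neural crest markers, led by Col1a1 and Col1a2, was 8460 to 10300 CPM in male Y202C and 17200 to 17800 CPM in male Y217C, the lines where Sall1 and Sall3 were highest, and 23100 to 42500 CPM in the other 6 lines. Of the astrocyte markers, Sox2 was at 150 CPM in male Y202C, 193 CPM in male Y217C, 24.5 CPM in male KO, and 1.86 CPM in male R172H, and it was off in female Y202C and Y217C. Aldh1l1 was at 28.4 and 56.6 CPM in male Y202C and Y217C and at 0.629 CPM in male KO, but also at 14.9 CPM in female R172H, where Sall1 and Sall3 were off. The astrocyte list did not follow them as a whole, because in male Y202C 8 of its 15 members were called lower and 7 higher (73.0% of all genes called), with a median log2 difference of −0.54. Lower there were Gja1, the gap junction protein connexin 43, by −1.21 (SE 0.083, adjusted p = 3.95e-12), the glycolytic enzyme gene Aldoc by −1.97 (SE 0.22, adjusted p = 2.9e-08), and the glial transcription factor gene Sox9 by −0.92 (SE 0.070, adjusted p = 2.9e-11). The part of these markers in the levels of Sall1 and Sall3 was not tested. In bulk RNA, fewer cells of a type and less RNA per cell cannot be told apart.

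Tfap2b was on in both KO lines and had the widest span of the 6 genes. It was at 10.3, 11.1, and 10.6 CPM in male KO and 22.9, 22.6, and 25.1 CPM in female KO. In female R172H it reached 247, 253, and 231 CPM, whereas in female Y217C all 3 libraries held 0 counts. Male Y202C held 0, 2, and 0 counts and male Y217C 3, 0, and 2. Intermediate levels were found in male R172H (2.1, 1.69, and 1.63 CPM) and in female Y202C (17.2, 12.2, and 16.2 CPM), and neither overlapped its KO line.

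Counted over the 3 libraries, Tfap2b was 10.3-fold higher in female R172H than in female KO (95% interval, 10.0 to 10.5) and 5.83-fold lower in male R172H than in male KO (5.29 to 6.42). It was at least 600-fold lower in female Y217C, 1280-fold lower in male Y202C on 2 counts in all (354 to 10600), and 497-fold lower in male Y217C on 5 counts (213 to 1530). The reduction in female Y202C was 1.56-fold (1.49 to 1.63). The same mutation thus came with levels on both sides of KO in the 2 cultures for R172H, and with off in one culture and on in the other for Y202C.

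Of 31 relatives of the 6 genes, 5 were measured (Sall2, Tfap2a, Morc2a, Morc3, and Morc4), and Tfap2a was the only one of them that was off in any line. The calls of the 5 were 2 higher and 0 lower in male R172H, 2 and 1 in male Y202C, 1 and 4 in male Y217C, 2 and 2 in female R172H, 0 and 2 in female Y202C, and 1 and 2 in female Y217C, comparisons in which 40.7%, 73.0%, 70.5%, 69.7%, 68.6%, and 56.7% of all genes were called. The 3 Tfap2a libraries in female Y217C, where Tfap2b was also at 0, held 0, 1, and 5 counts against 525, 370, and 444 in female KO (log2 difference −7.43, SE 0.30, adjusted p = 1.4e-15). Elsewhere the pair did not move together. In male Y202C, with Tfap2b off, Tfap2a was at 5.18 CPM ± 0.609 and higher than the 2.57 CPM ± 0.212 of male KO (log2 difference 1.01, SE 0.16, adjusted p = 4.06e-06), and in female R172H, with Tfap2b at its highest, Tfap2a was at 4.62 CPM ± 0.158 against 4.73 ± 0.433 in female KO (adjusted p = 0.866).

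The genes most like Tfap2b over the lines were Rcbtb1 (r = 0.982), Gm16299 (0.979), and Mrps12 (0.977). Their levels varied far less, from 30.3 to 70.5 CPM for Rcbtb1 and from 17.7 to 24.3 CPM for Mrps12. Meningeal and neural crest markers, a list that includes neural crest genes but not AP-2, summed to 36500 to 42500 CPM in female R172H and 23100 to 24900 CPM in female KO. In that line 11 of the 19 were called higher and 6 lower, with a median log2 difference of 0.62, where 69.7% of all genes were called. Among the lower ones were Zic1 (log2 difference −1.94, SE 0.048, adjusted p = 2.97e-20) and Zic2 (−1.34, SE 0.055, adjusted p = 2.56e-16). Pax3 was not called (0.18, SE 0.44, adjusted p = 0.734). Dcn, a small proteoglycan of connective tissue, rose by 5.59 in log2 (SE 0.20, adjusted p = 1.61e-17). Its relative Lum was at 18.2 CPM in female R172H and at 0.0704 to 0.675 CPM in the other 7 lines, and since it could enter the table only through female R172H, no test is given for it. Their part in the level of Tfap2b was not tested.

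Xirp2 was on in the KO lines alone. It was at 9.09, 4.69, and 4.74 CPM in male KO and 11, 11.4, and 8.68 CPM in female KO, ranges that overlap. No library of a mutant line was above 0.561 CPM. Counts were 30, 11, and 10 in male R172H, 0, 4, and 0 in male Y202C, and 6, 1, and 0 in male Y217C. In the female culture they were 0, 0, and 3 in R172H, 8, 2, and 4 in Y202C, and 9, 23, and 38 in Y217C. Male Y202C, male Y217C, and female R172H were off, and the other 3 mutant lines low.

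The loss of Xirp2 was thus shared by all 6 mutant lines, with differences of degree. Relative to its KO line, the summed count was 29.5-fold lower in male R172H (95% interval, 22.3 to 39.7), 346-fold lower in male Y202C (135 to 1270), and 192-fold lower in male Y217C (92.9 to 478). In the female culture it was 1090-fold lower in R172H on 3 counts (373 to 5300), 144-fold lower in Y202C (85.6 to 264), and 33.9-fold lower in Y217C (26.8 to 43.6). Ranked by mean CPM, each mutant line overlapped the next. Without its first library, female Y202C would be off.

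Of 26 markers of striated muscle, the tissue in which Xirp2 is best known, 10 were in the table, and Tnnt2, cardiac troponin T, and Ldb3, a Z-disc protein, were on in all 8 lines. Des, the muscle intermediate filament desmin, was on in female KO alone, at 9.32 CPM ± 0.643 against 0.395 to 0.714 CPM in the female mutant lines. It entered the table through that line, so no test of the difference is given. In male KO, with Xirp2 on, Des was only at 0.744 CPM. Called higher and lower were 2 and 3 of the 10 in male R172H, 2 and 7 in male Y202C, 1 and 6 in male Y217C, 2 and 5 in female R172H, 2 and 4 in female Y202C, and 1 and 5 in female Y217C. That is 50%, 90.0%, 70.0%, 70.0%, 60%, and 60% of the list, against 40.7%, 73.0%, 70.5%, 69.7%, 68.6%, and 56.7% of all genes. Their summed level was 32.9 to 36.6 CPM in male KO and 43.5 to 45.1 CPM in female KO, and 15.2 to 39.2 CPM in the mutant lines. The genes most like Xirp2 were Eif5a (r = 0.983), Soga3 (0.982), and Thoc6 (0.973). Soga3 was on in the 2 KO lines alone, at 4.11 and 3.83 CPM, and at 0.035 to 0.625 CPM in the mutant lines.

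Morc1 was on in 1 line only, male KO, with 194, 365, and 382 counts (2.34, 2.9, and 2.91 CPM). In male R172H it had 0, 0, and 4 counts, in male Y202C 0, 0, and 2, and in male Y217C 0 in each library. Female KO held 16, 6, and 6 counts (0.0973 CPM ± 0.0526), which was low rather than off because of the first library, and was 27.9-fold under male KO. Female R172H and Y217C held 0 counts in each library, and female Y202C 0, 0, and 2. Morc1 was therefore off in every mutant line of both cultures.

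The fall from male KO was at least 70.1-fold in Y217C, 180-fold in R172H on 4 counts (95% interval, 70.0 to 661), and 331-fold in Y202C on 2 counts (91.5 to 2740). In the female culture the KO level allowed bounds of only 3.37-fold in R172H and 2.48-fold in Y217C, and a ratio of 9.7 (2.45 to 84.1) in Y202C. Morc2a, Morc3, and Morc4, the relatives in the table, were on in all 8 lines at 68.7 to 110 CPM, 30.5 to 48.5 CPM, and 14.7 to 33.5 CPM. In male Y217C all of them were lower than in KO, Morc4 by −0.75 in log2 (SE 0.067, adjusted p = 5.43e-10).

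Of 35 listed germ-cell genes, 6 were in the table. In male Y217C, Tdrd1, a Tudor protein of the piRNA pathway, went from 0.61 CPM in KO to 0 counts in all 3 libraries, whereas Stag3, the meiotic cohesin subunit, rose from 3.04 to 16.1 CPM (log2 difference 2.41, SE 0.12, adjusted p = 6.27e-15). The calls were 2 higher and 0 lower in male R172H, 3 and 2 in male Y202C, 1 and 2 in male Y217C, 3 and 0 in female R172H, 3 and 1 in female Y202C, and 2 and 0 in female Y217C. The share called was 33.3%, 83.3%, 50%, 50%, 66.7%, and 33.3%, and that of all genes 40.7%, 73.0%, 70.5%, 69.7%, 68.6%, and 56.7%. The genes most like Morc1 were Bag2 (r = 0.898), Mdk (0.894), and Tmppe (0.876), a looser likeness than for the other 5 genes. Mdk, the growth factor midkine, was on in the 2 KO lines alone, at 8.14 CPM ± 0.386 and 4.42 CPM ± 0.201, and at 0.205 to 0.58 CPM in the mutant lines.

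Lce1h was on in both KO lines and in male R172H. It was at 5.04, 2.69, and 2.6 CPM in male KO and 2.91, 1.43, and 1.34 CPM in male R172H, which overlap, and at 10.4, 9.67, and 9.75 CPM in female KO. Female R172H held 0, 0, and 2 counts and female Y202C 2, 0, and 2, and both were off. Low levels were found in male Y202C (0.3, 0.108, and 0.107 CPM), male Y217C (0.0749, 0.233, and 0.147 CPM), and female Y217C (0.998, 1.85, and 1.71 CPM), the last just short of the on state. Without its first library, or with CPM on plain library totals, female Y217C would be on.

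The summed Lce1h count was 1590-fold lower in female R172H than in KO on 2 counts (95% interval, 440 to 13100), 489-fold lower in female Y202C on 4 counts (191 to 1800), and 6.64-fold lower in female Y217C (5.94 to 7.45). In the male culture it was 17.2-fold lower in Y202C (12.7 to 23.7) and 21.4-fold lower in Y217C (15.3 to 30.9). Female KO was 2.88-fold above male KO without overlap. The genes most like Lce1h were Foxk2 (r = 0.987), Cbl (0.984), and Clec2l (0.982). Foxk2 and Cbl were on throughout, Foxk2 from 99.5 to 171 CPM, so that the likeness lay in the order of the lines and not in their span. Among the 6 genes, Lce1h was most like Xirp2 (r = 0.87).

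Of 35 genes of the cornified envelope, 10 others were in the table, and no relative of the LCE family was among them. Lor, the major envelope protein loricrin, was on in male KO, male R172H, female KO, and female Y217C, where Lce1h was at 1.52 CPM or more. It was off in female Y202C (0.0206 CPM against 2.27 in KO, log2 difference −6.70, SE 0.52, adjusted p = 6.58e-11) and at 0.0962 CPM in female R172H. Cdsn, the adhesion protein corneodesmosin, moved the other way and was called higher than KO in every comparison. The rise was smallest in female Y202C (log2 difference 0.39). It was largest in male Y202C, from 21.3 to 914 CPM (log2 difference 5.42, SE 0.16, adjusted p = 5.06e-19). Called higher and lower were 3 and 2 of the 10 in male R172H, 5 and 5 in male Y202C, 3 and 5 in male Y217C, 3 and 4 in female R172H, 4 and 4 in female Y202C, and 3 and 5 in female Y217C. All genes were called at 40.7%, 73.0%, 70.5%, 69.7%, 68.6%, and 56.7% in these comparisons, beside 50%, 100%, 80.0%, 70.0%, 80.0%, and 80.0% of the list.

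Levels of different genes can be compared only per length of transcript. Expressed as TPM, which divides each count by the exon length of its gene before scaling, the highest line means were 127 for Tfap2b in female R172H, 48.4 for Lce1h in female KO, 39.5 for Sall1 in male Y217C, 11.7 for Sall3 in male Y202C, 2.97 for Xirp2 in female KO, and 1.48 for Morc1 in male KO. The 2 KO lines split the genes into groups of 3. Sall1, Sall3, and Morc1 were on in male KO and low in female KO, whereas Tfap2b, Xirp2, and Lce1h were on in both and 2.21-fold, 1.68-fold, and 2.88-fold higher in female KO.

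The choice of the genes follows the largest falls closely. Ranked by the fitted log2 fold change among genes with at least 10 counts in every KO library, Sall1 and Sall3 led in male R172H, ahead of Pou3f2. Tfap2b and Xirp2 led in male Y202C ahead of Aass, Morc1 and Tfap2b in male Y217C ahead of Tdrd1, and Lce1h and Xirp2 in female R172H ahead of Pou3f3. In female Y202C Lce1h was behind Zdbf2 and ahead of Wfdc2, and in female Y217C Tfap2b led ahead of Grb10 and Vax2. Zdbf2 (22.6 CPM in KO, 0.0346 in Y202C) and Grb10 (626 CPM in KO, 0.229 in Y217C), both known as imprinted genes, are the leading falls that are not among the 6. Pou3f2 went from 2.84 to 0 CPM, Aass from 1.66 to 0.00508, Tdrd1 from 0.61 to 0, Pou3f3 from 1.12 to 0, Wfdc2 from 3.7 to 0.00853, and Vax2 from 15.9 to 0.00985 CPM.

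The levels of the measured neighbours of the 6 genes were compared across the lines. Of 17 genes measured within 500 kb, none was off in any line, which also held for 96.6% of all genes. Genes that were always low are not in the table. How far along the chromosome an off state reached therefore cannot be read from this count. Next to Sall3, Atp9b, a membrane flippase 32.3 kb away, was at 50.7 to 77.0 CPM in all lines and was called higher than KO in all 6 comparisons, by 0.21 to 0.51 in log2. Next to Xirp2, B3galt1, a glycosyltransferase 39.3 kb away, was at 3.28 to 10.0 CPM. On the 2 sides of Sall1, Rps6-ps2 (220 kb) and Gm5356 (143 kb) were at 0.745 to 1.9 and 0.362 to 1.08 CPM. Gm4849, 92.4 kb from Tfap2b, was at 2.69 to 5.23 CPM, and Gm7204 and Dzip3, 212 and 293 kb from Morc1, at 2.97 to 4.35 and 53.6 to 85.5 CPM. Rps6-ps2, Gm5356, Gm4849, Gm7204, and Gm4202 are processed pseudogenes, whose counts may hold reads of their parent copies.

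Of the 17 neighbours, Crct1 beside Lce1h was called lower than KO in every comparison, as Atp9b was called higher. The comparisons share a KO line within each culture, and the share of all genes called 1 way in all 6 was not counted. Crct1, a cysteine-rich gene of the epidermal cluster 249 kb away, was at 10.4 CPM in male KO, 6.9 in R172H, 1.06 in Y202C, and 1.02 in Y217C, and at 16.3 CPM in female KO, 1.15 in R172H, 3.26 in Y202C, and 4.69 in Y217C. Its log2 differences ran from −3.82 in female R172H (adjusted p = 7.75e-15) to −0.59 in male R172H (adjusted p = 0.00528). Gm4202, which lies nearer at 73.1 kb, stayed at 31.5 to 59.4 CPM. Sprr1a, a small proline-rich envelope protein at 277 kb, was at 0.32 CPM in female Y202C against 10.9 in KO but was higher in male R172H (15.7 CPM) than in KO (6.46 CPM).

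Over the 17 neighbours, 5 were called higher and 4 lower in male R172H, 5 and 7 in male Y202C, 3 and 5 in male Y217C, 3 and 8 in female R172H, 3 and 11 in female Y202C, and 3 and 7 in female Y217C. In the same order, the share called was 52.9%, 70.6%, 47.1%, 64.7%, 82.4%, and 58.8%. Of all genes, 40.7%, 73.0%, 70.5%, 69.7%, 68.6%, and 56.7% were called. The share of the neighbours was thus lower than that of all genes in male Y202C, male Y217C, and female R172H, and higher in the others. Median log2 differences ran from −0.56 in female Y202C to 0.03 in male R172H. Farther away, Pi15, the nearest gene measured on the left of Tfap2b at 1580 kb, was off in 2 lines, male R172H and female Y217C, and Scn7a, 661 kb to the left of Xirp2, was off in 4. On the right of Sall3 the nearest gene measured was Gm17383 at 1350 kb, at 1.26 to 3.27 CPM.

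**Figure D5:**
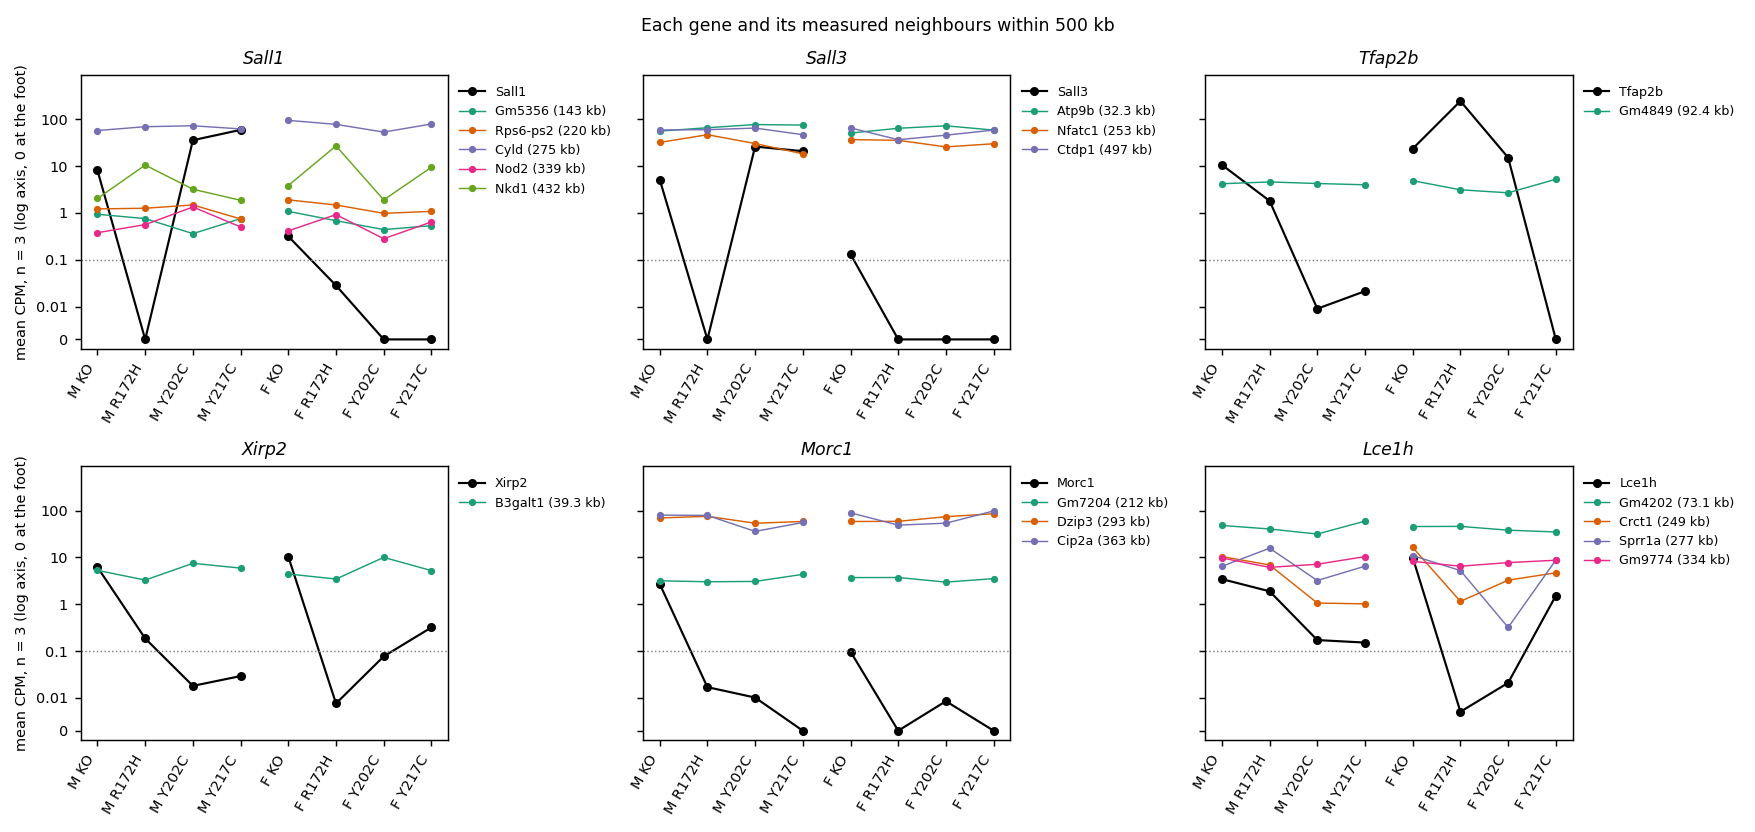
Mean CPM of 3 libraries (log axis, 0 at the foot) of each gene (black) and of its measured neighbours within 500 kb (colours, with the distance between gene bodies) in the 8 lines; M and F are the male and female culture, and the dotted line marks 0.1 CPM. None of the 17 neighbours was off in any line, as held for 96.6% of all genes, and Crct1 beside Lce1h was called lower than KO in all 6 comparisons.

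Genes of silencing pathways were measured almost in full. Of 46 genes of DNA methylation and Polycomb, 45 were in the table, and all were on in every line but male Y202C, where 44 were. Dnmt1, the maintenance methyltransferase, led them with a mean of 276 CPM. The largest changes called were in Cbx7, a Polycomb reader of histone methylation, which was higher in male Y202C (25.2 against 3.34 CPM, log2 difference 2.92, SE 0.17, adjusted p = 1.28e-13), in Tet1, a methylcytosine oxidase, lower in male Y202C (1.04 against 5.86 CPM, −2.52, SE 0.18, adjusted p = 8.41e-12), and in Phf19, a Polycomb accessory subunit, lower in female Y202C (3.64 against 17.4 CPM, −2.26, SE 0.079, adjusted p = 2.42e-17). The calls were 9 higher and 9 lower in male R172H, 18 and 22 in male Y202C, 15 and 19 in male Y217C, 13 and 22 in female R172H, 14 and 26 in female Y202C, and 8 and 23 in female Y217C. These were 40.0%, 88.9%, 75.6%, 77.8%, 88.9%, and 68.9% of the list, where 40.7%, 73.0%, 70.5%, 69.7%, 68.6%, and 56.7% of all genes were called.

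All 15 genes of the NuRD complex were on in every line. So were all 19 annotated genes of a second list, for silencing of germ-cell genes and retroelements. That list holds genes of HUSH, SETDB1, TRIM28, and histone H3K9 methylation, and others such as Mga, Max, Hells, and Smchd1. In NuRD, the ATPase Chd3 was lower in male Y202C (211 against 657 CPM, log2 difference −1.64, SE 0.068, adjusted p = 3.3e-16) and its relative Chd5 higher (16 against 4.19 CPM, 1.93, SE 0.13, adjusted p = 3.92e-12). Calls in NuRD were 3 higher and 3 lower in male R172H, 6 and 8 in male Y202C, 2 and 9 in male Y217C, 2 and 10 in female R172H, 3 and 10 in female Y202C, and 3 and 6 in female Y217C. Of the second list 3 and 2, 3 and 13, 2 and 11, 3 and 14, 3 and 12, and 1 and 6 were called higher and lower in the same order of lines, and the largest change called was a fall of Mga by 1.08 in log2 in male Y217C (SE 0.11, adjusted p = 4.57e-09). In that order, 40.0%, 93.3%, 73.3%, 80.0%, 86.7%, and 60% of NuRD and 26.3%, 84.2%, 68.4%, 89.5%, 78.9%, and 36.8% of the second list were called, beside 40.7%, 73.0%, 70.5%, 69.7%, 68.6%, and 56.7% of all genes.

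Csf1r, the receptor that microglia need, was at 2.93 CPM in female Y202C and 0.601 CPM in female KO. Of the 15 astrocyte markers, 10 were lower and none higher in male R172H, where Sall1 and Sall3 had no counts, and 11 were higher and none lower in male Y217C, where Sall1 was highest. They were 7 higher and 8 lower in male Y202C, 6 and 4 in female R172H, 6 and 3 in female Y202C, and 2 and 7 in female Y217C. Of all genes, 40.7% were called in male R172H, 70.5% in male Y217C, 73.0% in male Y202C, and 69.7%, 68.6%, and 56.7% in the female lines, so that the shares of this list in male Y217C (73.3%) and in the female lines (66.7%, 60%, and 60%) were near those of all genes. In male R172H (66.7%) and male Y202C (100%) the share of this list was above that of all genes. The 19 meningeal markers were 4 higher and 6 lower in male R172H, 3 and 14 in male Y202C, 5 and 11 in male Y217C, 14 and 2 in female Y202C, and 10 and 6 in female Y217C, which is 52.6%, 89.5%, 84.2%, 84.2%, and 84.2% of them against 40.7%, 73.0%, 70.5%, 68.6%, and 56.7% of all genes. The part of these marker genes in the states of the 6 genes was not tested.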

How the data were processed

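RNA from 24 libraries of 8 astrocyte lines was sequenced. The authors aligned reads with STAR 2.5.1a to the mouse primary assembly of Ensembl and counted unique, unambiguous reads per gene with featureCounts of Subread. The deposited values are raw counts, without normalization, for 14427 genes. Every gene exceeds 1 CPM in at least 3 libraries, so genes that were always low are not analysed here. Symbols and positions came from GENCODE M21 (GRCm38), which named 14350 identifiers.

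TMM-scaled CPM and a quasi-likelihood fit with 1 mean per line were computed with edgeR 4.0.16 in R 4.3.3 (genes above 1 CPM in at least 2 libraries, adjusted p of at most 0.05 over all genes). The 6 comparisons share a KO line within each culture. Likeness used log2 CPM with a prior count of 2. Ratios of summed counts carry exact Clopper-Pearson intervals (95%), and a line with 0 counts throughout was set to 3 counts per library, 0.0228 to 0.056 CPM. The fit was run on simulated counts in which 193 of 13881 tested genes were changed, in female R172H only. It recovered 188 of them with 5 false calls. Far more genes were called in the real comparisons, a setting that the simulation does not cover.

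Groups came from the sample labels. The 6 genes and all gene lists were chosen with earlier results of these data known. Besides the 6 genes, those named are the 3 largest falls per comparison, the 3 genes most like each, neighbours, relatives, and leading or most changed genes of each list. The genes with an identical state pattern, Nkd1, Lor, Sprr1a, and individual markers were named after their values were seen. Alternatives were limma and DESeq2, other scalings and filters, other thresholds, a replicate block, and leaving out each library.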

Additional observations from a re-analysis of the deposited data

Results flagged for a closer look

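For 3 of the 6 genes, a mutation went with a higher level than KO in every library of one culture and a lower level in every library of the other. The difference between the cultures was not tested, because these contrasts chose the genes. Sall1 in Y202C was at 35.7 CPM in the male line, above the 8.07 of male KO, and at 0 in the female line, below the 0.316 of female KO. In Y217C it was at 59.3 CPM in the male and 0 in the female line. Sall3 had the same directions, with 26.1 CPM in male and 0 in female Y202C, and 20.8 CPM in male and 0 in female Y217C, against 5.16 and 0.132 CPM in the KO lines. Tfap2b in R172H was opposite in direction, at 1.81 CPM in the male line against 10.6 in KO and at 244 CPM in the female line against 23.5 in KO. With 1 line per culture and genotype, sex, culture, and line cannot be told apart. Outliers were not looked for, since each line has 3 libraries.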

How the results depend on the processing

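The 22 off states of 48 became 18 when off meant under 0.05 CPM or at most 3 counts per library, which made Sall1 in female R172H, Xirp2 in male Y202C and Y217C, and Morc1 in male R172H low. Under 0.2 CPM there were 25, with Sall3 and Morc1 in female KO and Xirp2 in female Y202C added. On plain library totals, or without replicate 1 of female Y217C, Lce1h in female Y217C was on. Without replicate 1 of female KO, Morc1 was off there, and without replicate 1 of female Y202C, Xirp2 was off there. Leaving out any 1 library gave 22 to 23 off states. It gave 4781 to 6269, 10042 to 10705, 9514 to 10382, 9384 to 10280, 9277 to 10017, and 7306 to 8487 genes called in male R172H, Y202C, and Y217C and female R172H, Y202C, and Y217C, an order kept below. Neighbours called were then 8 to 10, 12 to 13, 7 to 9, 10 to 12, 13 to 14, and 7 to 11, and listed genes 76 to 91, 146 to 156, 125 to 135, 133 to 139, 133 to 141, and 104 to 120.

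Requiring an absolute log2 fold change above 0.5 left 1861, 6531, 5812, 5603, 5435, and 3657 genes and 45, 100, 88, 89, 89, and 67 of 173 listed genes. It left 7 neighbours in male Y202C, 3 in male Y217C, 7 in female R172H, and 4 in female Y217C. Within 250 kb, 4, 5, 3, 4, 7, and 4 of 8 neighbours were called, and within 1 Mb, 17, 27, 23, 29, 31, and 24 of 38, differences that follow from the number of genes in each window. At an adjusted p of at most 0.01, 6 neighbours were called in female Y217C. The other 607 recomputed values stayed within 1.5 times the main count or kept their direction, and none reversed.

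The replicate numbers did not pair the samples. Deviations of same-numbered libraries from their line means correlated at −0.172 to 0.245, and in no comparison were all 3 above 0.1. With a replicate block the calls were 5689, 10439, 10065, 9963, 9791, and 8035 genes, and no count changed by more than 1.5 times.

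A count of 3 stood for 0.0228 to 0.056 CPM, so states under 0.1 CPM rest on few reads. Bounds for Sall1, Sall3, and Morc1 in the female lines are limited by the low KO count.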
